A study of Homo sapiens with 12 samples.

Results

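The genes described here are 10 genes of inflammatory signalling in U87MG, a human glioblastoma cell line: the chemokines CXCL8 and CCL2, the interleukin 6 family cytokines IL6 and LIF, the interleukin 10 family cytokine IL24, the interleukin 1 genes IL1A, IL1B and IL1RN, and the NF-kB inhibitors TNFAIP3 and NFKBIA. They were taken by gene name from a deposited table of 55598 assembled loci, and each of the 10 matched exactly 1 locus that carries no other gene name. CXCL8 is listed there under its older symbol IL8, which RefSeq gives as a synonym. The 4 conditions, each held for 24 hours, were normoxia at pH 7.4 (called normoxia below), normoxia at pH 6.0 (acidosis), 1% oxygen at pH 7.4 (hypoxia) and 1% oxygen at pH 6.0 (both stresses). No oxygen level is stated for normoxia, and all conditions share the same line and medium. After a ribosome density gradient, a monosome, an oligosome and a polysome fraction of each lysate were sequenced, so the 12 libraries are 1 per condition and fraction. No difference between conditions therefore has a replicate check, and sizes are given without p-values.

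NF-kB is a transcription factor that is held in the cytoplasm by inhibitor proteins such as IkB alpha, the product of NFKBIA. Interleukin 1, tumour necrosis factor and several stresses lead to the loss of that inhibitor, and the freed factor switches on cytokine genes together with its own brakes, NFKBIA and the ubiquitin-editing enzyme A20, which TNFAIP3 encodes. Many cytokine mRNAs are short lived because their 3' untranslated regions carry repeats of the pentamer ATTTA, which recruit decay proteins such as ZFP36. Glioblastoma cells are known to secrete interleukin 8 and interleukin 6.

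Sequence features that these genes share are shown first. The promoters of CXCL8, IL6 and NFKBIA are printed because they hold the NF-kB motif close to the start site. Each runs from 250 bases before to 50 bases after a RefSeq gene start on GRCh38.p14, and capitals mark matches to GGNNNTTCC on the printed strand.
CXCL8 promoter (chr4:73740319-73740618, plus strand): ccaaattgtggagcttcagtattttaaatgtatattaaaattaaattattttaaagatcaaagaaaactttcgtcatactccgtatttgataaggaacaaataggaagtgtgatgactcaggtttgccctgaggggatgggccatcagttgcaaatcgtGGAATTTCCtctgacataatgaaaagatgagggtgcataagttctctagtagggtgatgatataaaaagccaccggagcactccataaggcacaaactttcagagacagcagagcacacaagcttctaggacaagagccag
IL6 promoter (chr7:22726950-22727249, plus strand): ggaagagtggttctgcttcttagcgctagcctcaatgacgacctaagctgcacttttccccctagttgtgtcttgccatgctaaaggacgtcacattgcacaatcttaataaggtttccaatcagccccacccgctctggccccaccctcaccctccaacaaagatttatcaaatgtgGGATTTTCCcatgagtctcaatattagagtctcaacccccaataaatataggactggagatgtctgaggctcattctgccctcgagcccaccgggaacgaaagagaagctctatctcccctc
NFKBIA promoter (chr14:35404700-35404999, minus strand): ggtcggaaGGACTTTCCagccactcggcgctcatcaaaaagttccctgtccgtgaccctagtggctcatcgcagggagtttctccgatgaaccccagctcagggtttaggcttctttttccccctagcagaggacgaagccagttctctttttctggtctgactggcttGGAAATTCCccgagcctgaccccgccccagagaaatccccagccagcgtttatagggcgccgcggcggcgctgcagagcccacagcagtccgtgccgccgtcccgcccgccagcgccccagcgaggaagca

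RefSeq promoter windows were on hand for 8 of the 10 genes (not for LIF and CCL2). GGNNNTTCC, searched on both strands, matched in at least 1 window of 5 of those 8 genes, and in 20.1% of all 35116 windows of the same length. The match in CXCL8 begins 91 bases before the start site and that in IL6 72 bases before it. NFKBIA has 2 matches on the printed strand, 242 and 81 bases before the start. TNFAIP3 has 2 on the opposite strand, 67 and 55 bases before its start, and IL1RN has 1 that lies 96 bases before one of its start sites. The AP-1 motif TGANTCA, also searched on both strands, matched in 3 of 8 (CXCL8, IL1A and IL1RN) and in 7.71% of all windows. ACGTG, the core of the element bound by hypoxia-inducible factors, matched in 2 of 8 (IL1A and TNFAIP3) and in 21.4% of all windows. The counts are of genes and the percentages are of windows. IL1A and IL1RN have more than 1 window each, so the counts and percentages are not like for like. These matches describe letters in a window and are not shown to be bound sites.

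The 3' untranslated regions of these mRNAs are the second feature. The 5 windows below come from the cytokine mRNAs with at least 5 copies of ATTTA there. Each is the 30 bases richest in ATTTA, read on the mRNA strand from GENCODE 29 transcripts on GRCh38, with each ATTTA in capitals.
CXCL8 (chr4:73743108-73743137, plus strand): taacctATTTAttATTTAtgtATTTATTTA
IL6 (chr7:22731697-22731726, plus strand): ttttaattatttttaATTTAttaatATTTA
LIF (chr22:30240522-30240551, minus strand): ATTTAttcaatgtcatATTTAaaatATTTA
IL1A (chr2:112774424-112774453, minus strand): tATTTAtatatgtATTTAtaaatatATTTA
IL1B (chr2:112830003-112830032, minus strand): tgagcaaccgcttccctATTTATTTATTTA

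Over its whole 3' untranslated region CXCL8 holds 9 copies of ATTTA, a density of 7.19 per kilobase. IL6 holds 6 (13.99 per kilobase), IL1B 6 (9.84), LIF 7 (2.18), IL1A 5 (4.34), TNFAIP3 5 (2.51), IL24 3 (3.72), NFKBIA 3 (5.98) and CCL2 1 (2.66). The median of 18927 protein-coding genes was 1.41 per kilobase. IL1RN, which encodes the antagonist of interleukin 1, holds 0 copies in 1145 bases. The longer form TTATTTATT occurs in 4 of the 10 (CXCL8, LIF, IL1B and TNFAIP3) and in 7.51% of protein-coding genes.

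Levels are given in FPKM (fragments per kilobase of transcript, as the authors scaled them), so they compare between genes per length. The condition-wide level of a gene, called its aggregate FPKM, is the mean of its 3 fractions weighted by the amount of RNA that the authors assigned to each. A fold is the ratio of 2 aggregates, and its approximate 95% interval comes from the estimated number of fragments and covers counting error only. A centred change is the log2 difference of aggregate FPKM plus 1, minus the median of the 12190 compared loci, whose FPKM averages 1 or more, a level that 9 of the 10 genes reach and CCL2 does not. A gene is called changed when its centred change passes 2-fold with the same direction in each fraction, and called for a stress as a whole when this holds in both pairs of conditions. Acidosis was compared in normoxia and in hypoxia, and these pairs share no library, while a pair for acidosis and a pair for hypoxia always share 1 condition. In bulk RNA, fewer cells that express a gene and less RNA per cell cannot be told apart. The relative depth of the libraries, recovered from the smallest steps of the FPKM values, ran from 0.626 times (hypoxia with acidosis, monosome) to 2.53 times (acidosis, polysome) that of the normoxia monosome library. The hypoxia with acidosis monosome library also had the highest summed FPKM. Of the hypoxia markers, CA9, VEGFA and SLC2A1 were all called higher in hypoxia. CDKN2A and CDKN2B, which U87MG lacks, were at 0 in every library. The glial markers GFAP (mean 0.210 FPKM), S100B (0.0133) and OLIG2 (0.0153) were nearly absent and NES reached 0.792, against a mean of 5979 FPKM for the mesenchymal gene VIM.

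**Figure D1:**
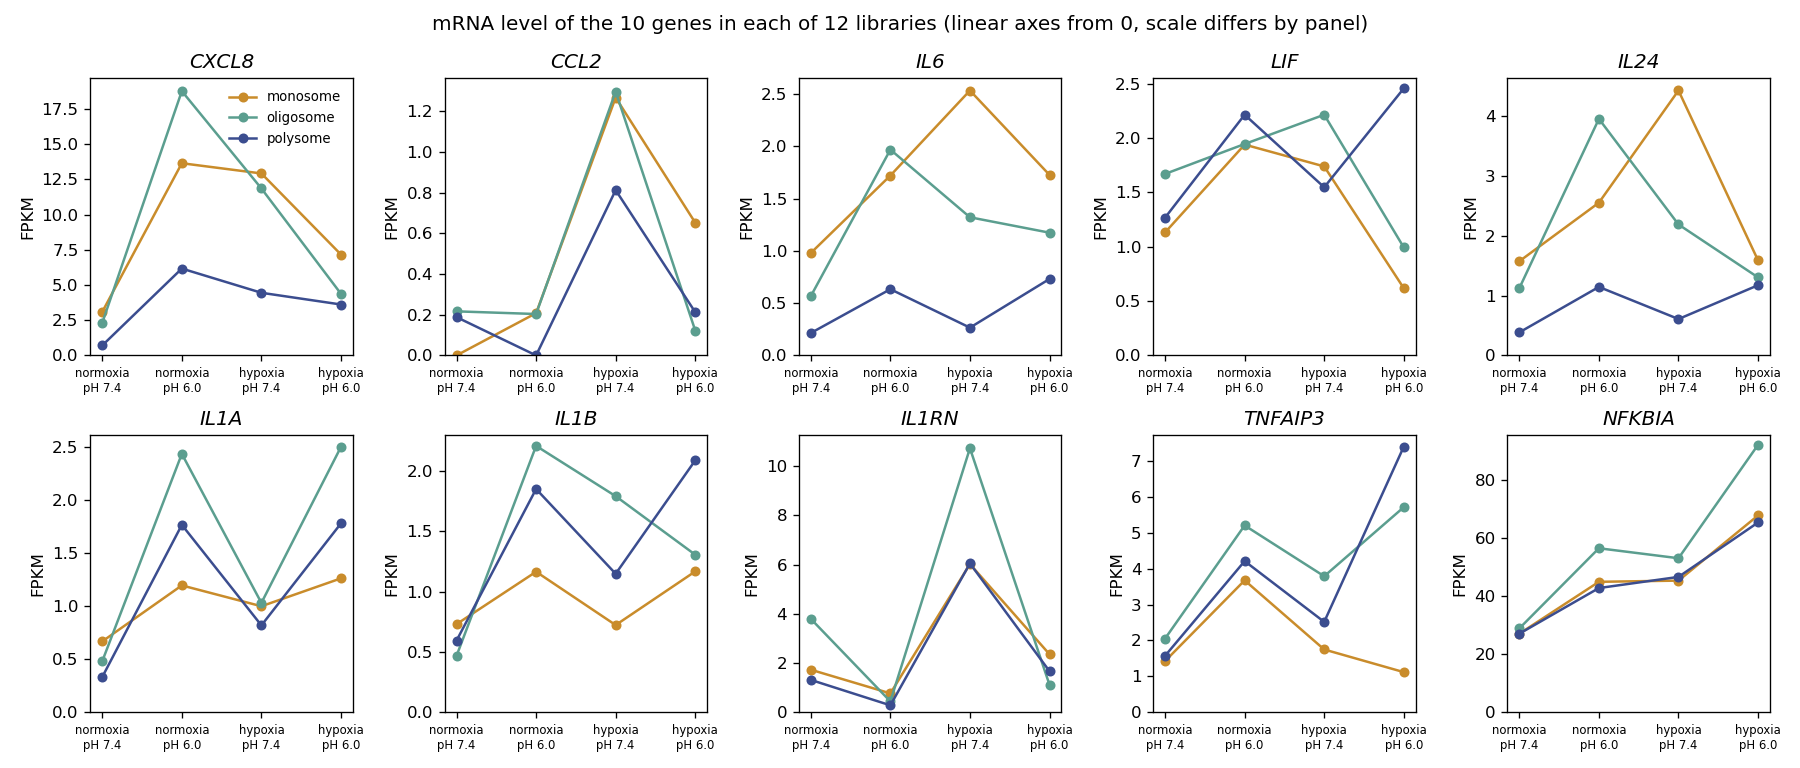
FPKM of the 10 genes in each of the 12 libraries, with conditions on the horizontal axis, 1 line per gradient fraction and linear vertical axes that differ by panel. CXCL8 is highest in acidosis alone or hypoxia alone, IL1RN is lowest in acidosis in every fraction, and NFKBIA is highest under both stresses together.

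CXCL8 encodes interleukin 8, which attracts neutrophils and promotes vessel growth (chromosome 4, 73740506 to 73743716, plus strand). Its mRNA was high under either stress alone and lower under both together. In normoxia it stood at 3.09 FPKM in the monosome, 2.31 in the oligosome and 0.707 in the polysome library. Acidosis gave 13.6, 18.8 and 6.17 FPKM in the same order of fractions. Hypoxia gave 12.9, 11.9 and 4.45. The combined stress gave 7.16, 4.37 and 3.62. Each of the 9 stressed libraries was above the normoxia library of its fraction, and in each fraction the combined stress was below either stress alone.

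As an aggregate, CXCL8 rose from 1.61 to 12.3 FPKM with acidosis in normoxia, a 7.68-fold difference (counting interval 6.28 to 9.39). It rose to 8.52 FPKM with hypoxia at pH 7.4, or 5.31-fold (4.32 to 6.52). Set against hypoxia, the combined stress stood at 4.52 FPKM, 0.530 times the level (0.453 to 0.621), and set against acidosis at 0.367 times (0.315 to 0.427). The centred log2 changes were 2.39 with acidosis in normoxia and -0.94 with acidosis in hypoxia. Those of hypoxia were 1.94 at pH 7.4 and -1.38 at pH 6.0. The last of these was -0.75, short of 2-fold, without the oligosome libraries and -0.93 with a pseudocount of 5.

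Because the direction turned, CXCL8 was called for neither stress as a whole. With acidosis all 3 fractions were higher in normoxia and all 3 lower in hypoxia, which was the case for 3.3% of the compared loci. The difference between the change with acidosis in hypoxia and that in normoxia was -3.32 on the log2 scale, and 10 of the 12190 loci (0.082%) had a lower value. With hypoxia the centred changes of the fractions were all opposite between the pairs for CXCL8, IL24 and IL1A, as for 5.3% of loci. These differences have no replicate check. Over the alternatives tried, the change with acidosis stayed between 1.41 and 2.90 in normoxia and between -1.13 and -0.59 in hypoxia.

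CCL2 encodes the monocyte attractant MCP-1 (chromosome 17, 34255218 to 34257203, plus strand). It was close to the detection limit everywhere except in hypoxia at pH 7.4. Its FPKM values were turned into fragments with the unit that brought them closest to whole numbers, and they then lay within 0.160 of a fragment. The unit was chosen for that fit, so the numbers are estimates. A calibration by transcript length gave 16 and 10 fragments, not the 15 and 9 given next, in the hypoxia oligosome and polysome libraries. Normoxia gave 0 in the monosome, 2 in the oligosome and 2 in the polysome library, and acidosis gave 1, 2 and 0. Hypoxia gave 5, 15 and 9 fragments, and the combined stress 2, 1 and 2. Over the 3 fractions these are 4 fragments in normoxia (exact Poisson interval 1.09 to 10.2), 3 in acidosis (0.619 to 8.77), 29 in hypoxia (19.4 to 41.6) and 5 under both (1.62 to 11.7), before any scaling for depth. The hypoxia interval does not meet the other 3. In aggregate FPKM the levels were 0.171, 0.108, 1.06 and 0.281, and hypoxia at pH 7.4 stood 6.20-fold (2.17 to 17.7) above normoxia. The mean over the libraries, 0.431 FPKM, kept CCL2 out of the calls.

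IL6 encodes interleukin 6, the ligand that activates STAT3 through the shared receptor chain IL6ST (chromosome 7, 22725884 to 22732002, plus strand). IL6 mRNA was low, and all 3 stress conditions were above normoxia. Its FPKM in normoxia was 0.979 in the monosome, 0.567 in the oligosome and 0.214 in the polysome library. It was 1.72, 1.97 and 0.633 in acidosis, and 2.53, 1.32 and 0.266 in hypoxia. Under both stresses it was 1.73, 1.17 and 0.731. The aggregates were 0.445, 1.31, 1.02 and 1.04 FPKM, so acidosis stood 2.95-fold (1.90 to 4.58) and hypoxia 2.28-fold (1.45 to 3.59) above normoxia. Acidosis in hypoxia gave a ratio of 1.02 (0.694 to 1.501). No centred change of IL6 passed 2-fold, the highest being 0.71 with acidosis in normoxia.

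LIF encodes leukaemia inhibitory factor, which signals through LIFR and IL6ST and maintains glioma stem-like cells (chromosome 22, 30240447 to 30246851, minus strand). The summed level of LIF differed little between conditions, while its place in the gradient differed more. In normoxia LIF measured 1.13 FPKM in the monosome, 1.67 in the oligosome and 1.27 in the polysome library. Acidosis gave 1.94, 1.95 and 2.22, and hypoxia 1.74, 2.22 and 1.55. Under both stresses the monosome and oligosome values, 0.619 and 0.994, were the lowest of their fractions and the polysome value, 2.46, was the highest. The aggregates ran only from 1.39 to 2.07 FPKM, and no centred change passed 2-fold.

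IL24 encodes a cytokine of the interleukin 10 family first isolated from melanoma cells (chromosome 1, 206897443 to 206904139, plus strand). Its pattern was close to that of CXCL8 at a lower level. Normoxia gave 1.57, 1.12 and 0.385 FPKM in the monosome, oligosome and polysome libraries, and acidosis gave 2.55, 3.95 and 1.14. Hypoxia gave 4.43, 2.19 and 0.608, and both stresses 1.59, 1.30 and 1.17. The aggregate was 0.811 FPKM in normoxia, 3.07-fold higher in acidosis (2.25 to 4.20) and 2.22-fold higher in hypoxia (1.61 to 3.07). Under both stresses it was 1.29 FPKM, 0.517 times that in acidosis alone (0.384 to 0.697). The centred changes, 0.98 and -0.44 for acidosis and 0.70 and -0.72 for hypoxia, all stayed short of 2-fold.

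**Figure D2:**
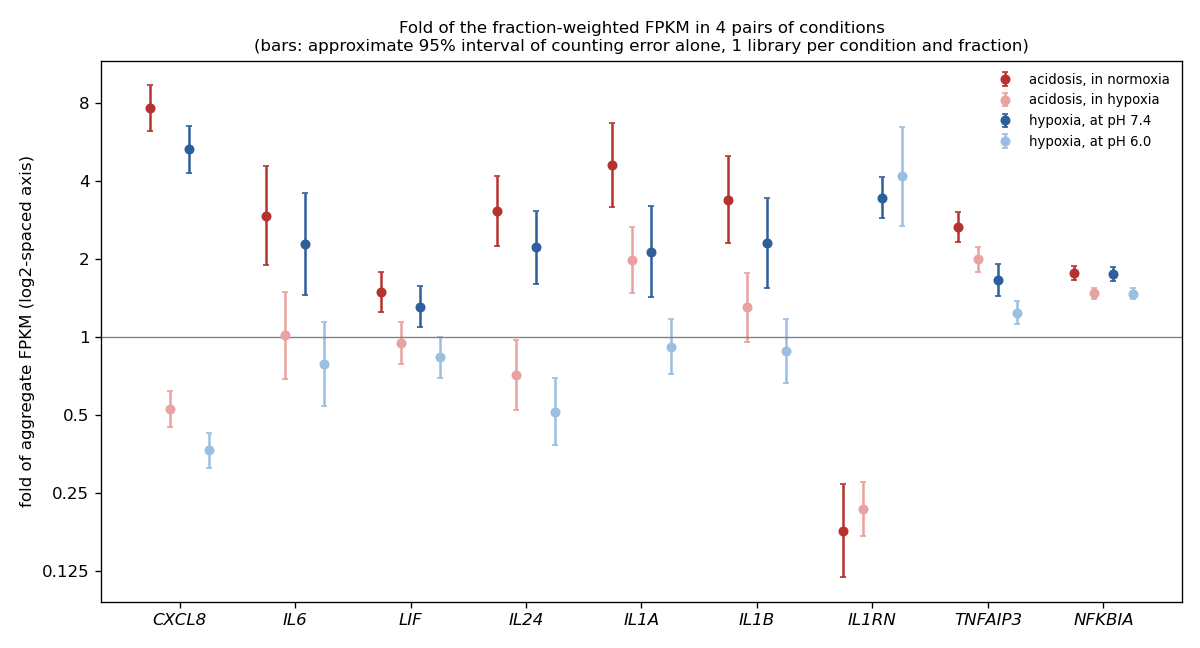
Fold of the aggregate FPKM for 9 genes in 4 pairs of conditions, on a log2-spaced axis, with bars for the approximate 95% interval of counting error alone. For CXCL8 the folds of 7.68 and 5.31 under a single stress lie above 1 and those of 0.530 and 0.367 on adding the other stress lie below it, while IL1RN lies below 1 for acidosis in both oxygen states and above 1 for hypoxia at both pH values.

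IL1A and IL1B encode interleukin 1 alpha and beta, which act on the same receptor, and IL1RN encodes the antagonist that occupies this receptor without signalling. All 3 lie on chromosome 2, IL1A at 112773915 to 112784590 and IL1B at 112829751 to 112836903 on the minus strand, and IL1RN at 113107214 to 113134016 on the plus strand. In acidosis the mRNAs of the agonists were higher and that of the antagonist lower. IL1A stood at 0.670, 0.483 and 0.334 FPKM (monosome, oligosome, polysome) in normoxia and at 1.20, 2.44 and 1.77 in acidosis. It stood at 1.00, 1.03 and 0.821 in hypoxia and at 1.26, 2.504 and 1.78 under both stresses. Both conditions at pH 6.0 were above both at pH 7.4 in every fraction. The aggregate went from 0.434 to 2.003 FPKM with acidosis in normoxia, 4.62-fold (3.19 to 6.70), and from 0.927 to 1.85 in hypoxia, 1.99-fold (1.49 to 2.66). IL1A was called higher with acidosis in normoxia at a centred 1.10. This fell short of 2-fold with unweighted fractions (0.92), without the oligosome libraries (0.97) and with a pseudocount of 5 (0.38).

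IL1B stood at 0.731, 0.469 and 0.594 FPKM in the 3 fractions of normoxia and at 1.16, 2.21 and 1.85 in acidosis. Hypoxia gave 0.723, 1.79 and 1.15, and both stresses 1.17, 1.31 and 2.09. The aggregate went from 0.570 to 1.94 FPKM with acidosis in normoxia (3.40-fold, 2.31 to 4.99), a centred 0.94 that is just under the 2-fold mark. In hypoxia it was 1.31 FPKM at pH 7.4 and 1.72 at pH 6.0, a ratio of 1.31 whose counting interval, 0.960 to 1.78, includes 1.

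IL1RN was the only 1 of the 9 measured genes called for a stress as a whole, lower with acidosis, against 0.238% of all compared loci. In normoxia it stood at 1.73, 3.80 and 1.32 FPKM in the monosome, oligosome and polysome libraries. Acidosis gave 0.772, 0.446 and 0.288, on an estimated 9, 11 and 9 fragments. Hypoxia gave 6.02, 10.7 and 6.05, and both stresses gave 2.36, 1.12 and 1.67. Within each fraction the acidosis library was the lowest of the 4 and the hypoxia library the highest. The aggregate dropped from 2.24 to 0.403 FPKM with acidosis in normoxia, 5.57-fold lower (3.69 to 8.40), and from 7.75 to 1.68 FPKM in hypoxia, 4.60-fold lower (3.63 to 5.84). The centred log2 changes, which include the pseudocount of 1, were -1.18 and -1.86, with a mean of -1.52. The call depended on the oligosome libraries: without them the change in normoxia was -0.77, short of 2-fold, though the monosome and polysome libraries also pointed down. With a pseudocount of 5 the mean was -0.71, also short of the mark.

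Hypoxia moved IL1RN the other way. Its aggregate rose 3.45-fold at pH 7.4 (2.88 to 4.15), and the level at pH 6.0 was 4.18-fold higher (2.70 to 6.48), with centred changes of 1.5 and 0.83. The second value is short of 2-fold, so hypoxia as a whole was not called. With a pseudocount of 0.1, which draws low values less toward 0, it was called at a mean of 1.76. The locus-level FPKM does not separate the secreted from the intracellular forms of the antagonist.

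The balance within the interleukin 1 group can be read as IL1RN FPKM over the sum of IL1A and IL1B FPKM. In aggregate it was 2.23 in normoxia and 0.102 in acidosis, and it was 3.46 in hypoxia and 0.473 under both stresses. As an aggregate, the antagonist mRNA thus exceeded the agonist mRNAs at pH 7.4 in both oxygen states and was below them at pH 6.0. In the polysome libraries alone the ratios were 1.42, 0.0795, 3.07 and 0.432 in the same order of conditions. In the monosome libraries they were 1.24, 0.327, 3.49 and 0.971. The monosome ratio under both stresses rests on an estimated 19 fragments of IL1RN, 12 of IL1A and 9 of IL1B. That in normoxia rests on 22, 10 and 9 fragments. These are too few to place either ratio above or below 1. A library's scaling cancels in the ratio of a single fraction but not in that of the aggregates, where it sets the weight of the fraction.

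**Figure D3:**
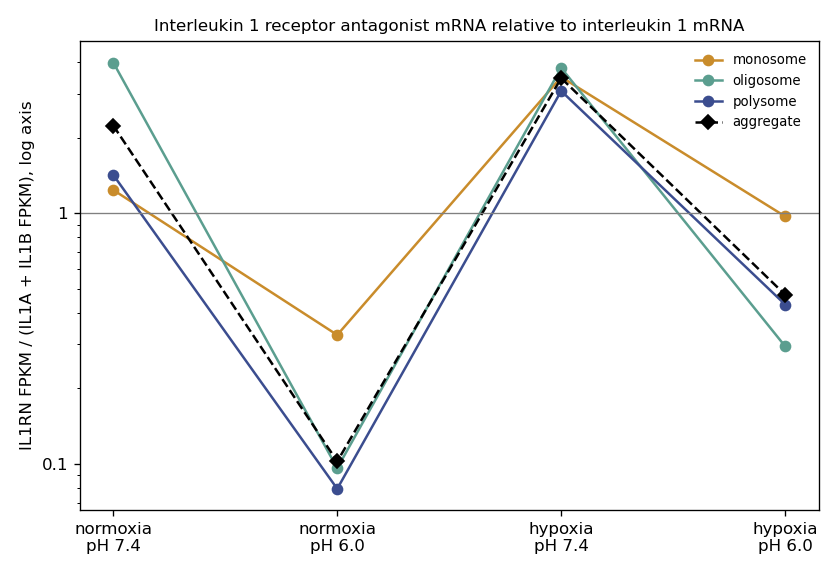
Ratio of IL1RN FPKM to the summed FPKM of IL1A and IL1B on a log axis, by condition, for each fraction and for the aggregate. The aggregate is 2.23 and 3.46 at pH 7.4, above the line at 1, and 0.102 and 0.473 at pH 6.0, below it, and each fraction is lower at pH 6.0 than at pH 7.4 in both oxygen states.

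TNFAIP3 encodes A20, which removes activating ubiquitin chains from the proteins that relay signals to NF-kB (chromosome 6, 137867188 to 137883312, plus strand). Its mRNA was raised by acidosis in normoxia, and under both stresses 4.02% of it lay in the monosome fraction. TNFAIP3 stood at 1.43 FPKM in the monosome, 2.05 in the oligosome and 1.57 in the polysome library of normoxia. Acidosis gave 3.67, 5.20 and 4.21, and hypoxia 1.75, 3.79 and 2.52. Under both stresses the values were 1.12, 5.71 and 7.39, the lowest monosome value and the highest oligosome and polysome values of the 4 conditions. The aggregate was 1.72 FPKM in normoxia, 4.58 in acidosis, 2.86 in hypoxia and 5.71 under both. Acidosis in normoxia gave 2.66-fold (2.33 to 3.05), a centred 1.07 that was called, and 0.53 with a pseudocount of 5. Acidosis in hypoxia gave 2.0-fold (1.79 to 2.23), a centred 0.65.

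NFKBIA was the most abundant of the 10 genes in every condition (chromosome 14, 35401511 to 35404749, minus strand). It stood at 27.1, 28.9 and 27.1 FPKM in the monosome, oligosome and polysome libraries of normoxia. Acidosis gave 44.9, 56.4 and 42.7, and hypoxia 45.3, 53 and 46.6. Under both stresses it reached 67.7, 92.0 and 65.3. Every library under a single stress was above its normoxia counterpart, and every library under both was above either alone. The aggregates were 27.7, 48.9, 48.7 and 72.0 FPKM. Acidosis gave 1.76-fold in normoxia (1.66 to 1.88) and 1.48-fold in hypoxia (1.41 to 1.55). Hypoxia gave 1.76-fold at pH 7.4 and 1.47-fold at pH 6.0. None of these reached 2-fold after centring. The combined stress against normoxia did, at 2.60-fold (2.45 to 2.76) and a centred 1.26, and NFKBIA was the only 1 of the 9 genes called there, against 11.9% of loci called higher. Under the authors' RNA scaling the value was 0.89, short of the mark. CXCL8 was just short of it at a centred 0.998 and passed with a pseudocount of 0.1 (1.34). TNFAIP3 passed at 1.22 but was not called, since its monosome change was -0.30. The folds of IL1A (4.26), TNFAIP3 (3.32), IL1B (3.01) and CXCL8 (2.81) were above that of NFKBIA. Those of the other measured genes were below it.

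In each pair of conditions taken alone, calls were few. Acidosis in normoxia gave 3 genes called higher (CXCL8, IL1A and TNFAIP3), against 3.5% of loci, and 1 called lower (IL1RN), against 1.3%. Acidosis in hypoxia gave 0 higher, against 5.68%, and 1 lower (IL1RN), against 6.3%. Hypoxia at pH 7.4 gave 2 higher (CXCL8 and IL1RN), against 5.27%, and 0 lower, against 2.8%. Hypoxia at pH 6.0 gave 0 higher, against 6.28%, and 1 lower (CXCL8), against 7.45%. For a stress as a whole, 0 genes were called higher with acidosis (1.21% of loci), and 0 higher (2.14%) and 0 lower (0.911%) with hypoxia.

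Over the 9 measured genes the median centred change was 0.94 with acidosis in normoxia and -0.14 with acidosis in hypoxia, where the median locus is 0. For hypoxia it was 0.63 at pH 7.4 and -0.22 at pH 6.0. The difference between the change with acidosis in hypoxia and that in normoxia was below 0 for 9 of the 9, with a median of -0.69, and below 0 for 51.9% of all loci, with a median of -0.03. It ran from -0.42 for TNFAIP3 and -0.43 for NFKBIA through -0.59 for LIF, -0.68 for IL1RN, -0.69 for IL1A, -0.85 for IL6 and -0.86 for IL1B to -1.42 for IL24 and -3.32 for CXCL8. These genes were assembled with results of these libraries known, and most were low in the normoxia libraries that enter every one of these values.

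The order of the levels changed with the condition. In normoxia NFKBIA was followed by IL1RN (2.24 FPKM), TNFAIP3 (1.72), CXCL8 (1.61) and LIF (1.39). IL24, IL1B, IL6, IL1A and CCL2 were all under 1 FPKM, and IL1B, IL6 and IL1A rested on 35, 28 and 35 estimated fragments, too few to put them in order. In acidosis CXCL8 was second and IL1RN ninth of the 10. In hypoxia CXCL8 (8.52) and IL1RN (7.75) came next. Under both stresses TNFAIP3 (5.71) and CXCL8 (4.52) followed NFKBIA, and IL1A (1.85), LIF (1.74), IL1B (1.72) and IL1RN (1.68) lay close together.

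The gradient shows how far these mRNAs were loaded with ribosomes. For CXCL8, IL6 and IL24 the monosome FPKM exceeded the polysome FPKM in all 4 conditions, as it did for 25% of all loci. For CXCL8 the monosome to polysome quotient of FPKM was 4.37 in normoxia, 2.21 in acidosis, 2.91 in hypoxia and 1.98 under both. For IL6 it was 4.58, 2.72, 9.54 and 2.36, and for IL24 4.09, 2.23, 7.28 and 1.35. Weighted by RNA amount, the polysome fraction held 22.4% of CXCL8 mRNA in normoxia, 23.6% in acidosis, 24.7% in hypoxia and 44.9% under both. For IL6 the polysome share was 24.5%, 22.7%, 12.4% and 39.5% in the same order, and for IL24 24.2%, 21.7%, 16.0% and 51.1%. The monosome fraction, which holds less RNA, had 27.3%, 10.7%, 24.6% and 32.5% of CXCL8 mRNA. The polysome share of CXCL8 was thus the larger in acidosis and under both stresses, near equal in hypoxia and the smaller in normoxia. For each of these 3 genes the oligosome share was the largest in normoxia, acidosis and hypoxia, and the polysome share under both stresses. The oligosome share of the median locus was 31.6%, 40.2%, 32.9% and 20.9% in normoxia, acidosis, hypoxia and both. The RNA factor that weights the oligosome fraction was 3.68, 4.47, 3.11 and 1.76, so its weight was lowest under both stresses. The polysome share of the median locus was 52.3%, 47.3%, 48.6% and 57.05%. NFKBIA stayed near that median, at 49.8%, 41.3%, 45.3% and 50.9%.

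**Figure D4:**
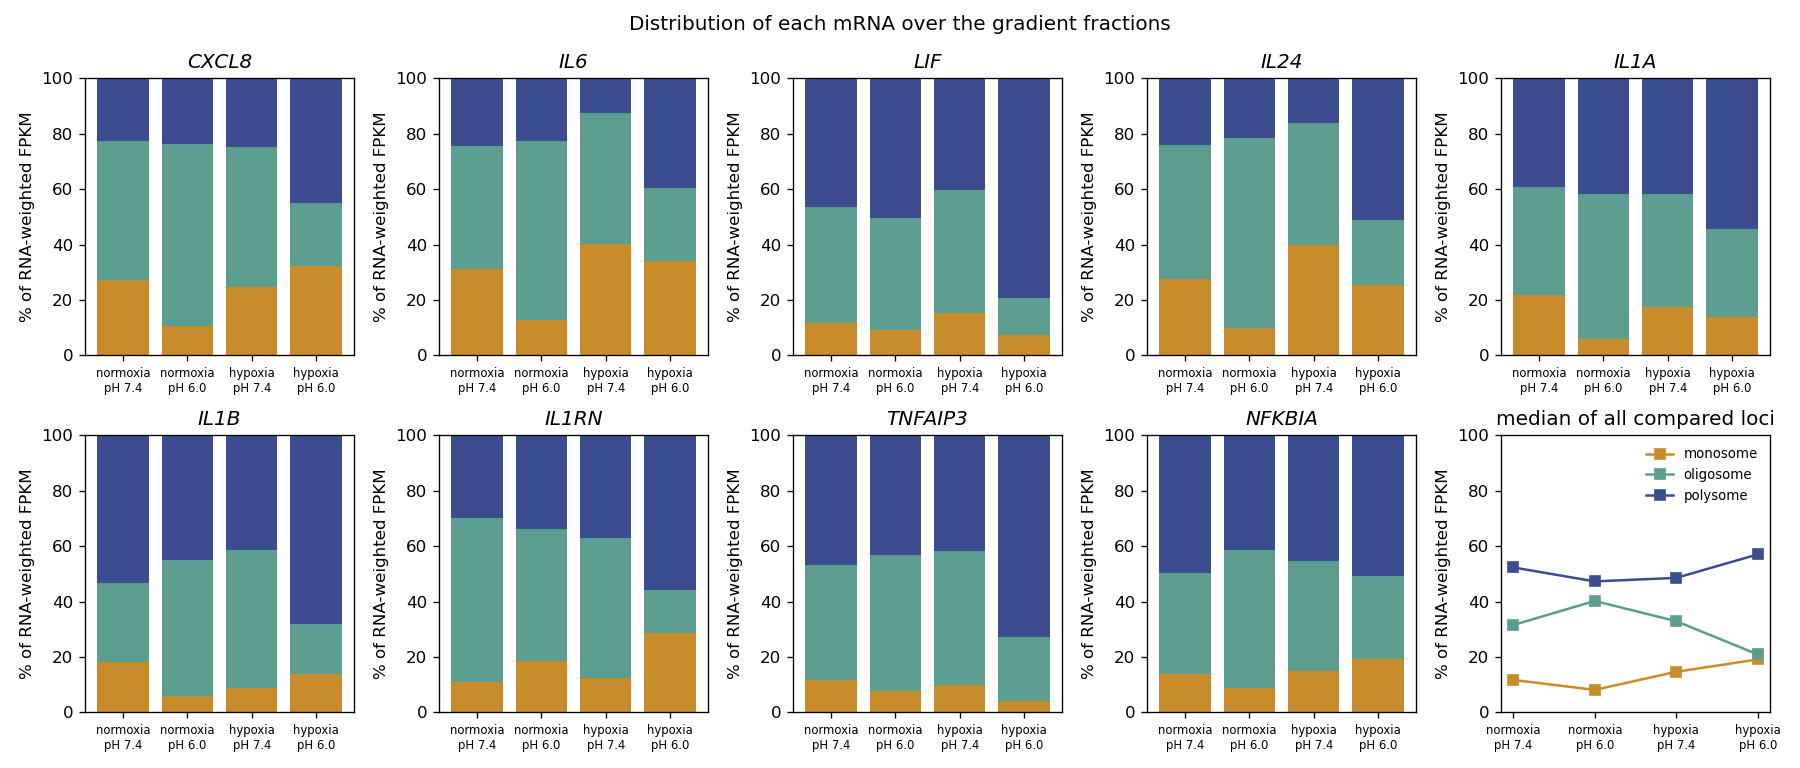
Share of RNA-weighted FPKM in the monosome, oligosome and polysome fraction for 9 genes in each condition, as stacked bars, with the median share over all compared loci as points in the last panel. The polysome share under both stresses reaches 79.3% for LIF and 72.6% for TNFAIP3, against a median of 57.05%.

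Translation efficiency (TE) was taken as polysome FPKM plus 1 over monosome FPKM plus 1, after the series' own definition, and called changed past 1.5-fold in both pairs. With acidosis 0 of the 9 genes were called higher (5.73% of loci) and 0 lower (6.68%). With hypoxia 0 were higher (8.79%) and 0 lower (10.1%). For TNFAIP3 and LIF the combined stress stood apart from the other conditions. TNFAIP3 had a TE ratio of 1.06 in normoxia, 1.11 in acidosis, 1.28 in hypoxia and 3.96 under both. Its polysome share was 46.6%, 43.3%, 41.7% and 72.6%. LIF had TE ratios of 1.06, 1.09, 0.930 and 2.14, and polysome shares of 46.5%, 50.4%, 40.2% and 79.3%. The last share of LIF was higher than in 94.2% of loci, and that of TNFAIP3 higher than in 82.4%.

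The centred log2 change of TE with acidosis in hypoxia was 1.64 for TNFAIP3 (counting standard error 0.38), 1.51 for IL24 (0.65), 1.21 for LIF (0.53) and 0.84 for IL6 (0.83). These are 4 genes called higher in that pair, against 27% of all loci. The counting errors are those of the polysome to monosome ratio without the pseudocount of 1, which draws changes of low genes toward 0. A change below its error is therefore not shown to lie within counting error. For IL6 the monosome to polysome quotient of FPKM went from 9.54 in hypoxia to 2.36 under both. With hypoxia at pH 6.0 TNFAIP3 (1.86) and LIF (1.00) were called higher, 2 of 9 against 27.4%. With hypoxia at pH 7.4 IL6 (-0.68) and IL24 (-0.77) were called lower, 2 of 9 against 21.4%, with counting errors of 1.00 and 0.70. Acidosis in normoxia gave 1 call, IL1A at 0.71 (error 0.74), against 15.5%. Both stresses against normoxia gave 5 genes called higher against 27.8%, and 0 lower, against 29.8%. TNFAIP3 (1.95, error 0.39) and LIF (1.06, error 0.54) exceeded their counting error. For IL24 (0.69, error 0.75), IL1B (0.68, error 0.80) and IL1A (0.67, error 0.78) the change with the pseudocount was below the error of the ratio without it.

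All of the values under both stresses use the hypoxia with acidosis monosome library, which was the shallowest. It held an estimated 24 fragments of TNFAIP3, 11 of LIF and 12 each of IL6, IL24 and IL1A. Its part in these changes was not tested. With the oligosome in place of the monosome library, the change with acidosis in hypoxia was 0.77 for TNFAIP3, 0.91 for IL24, 1.13 for LIF and 0.55 for IL6, the last short of 1.5-fold. The change with hypoxia at pH 6.0 was then 0.62 for LIF, still past 1.5-fold, and 0.53 for TNFAIP3, short of it. For both stresses against normoxia the change of TNFAIP3 was then 0.57, also short of 1.5-fold.

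The surrounding pathway was read from lists of genes. Of 15 receptor genes, 12 had a single locus with no other gene name, and 6 were measured. CXCR1 and CXCR2, the receptors of interleukin 8, were listed at 0 in every library, and CCR2, the receptor of the CCL2 protein, did not exceed 0.0922 FPKM. TNFRSF1A (mean 53.7 FPKM), IL6ST (9.01), IL1R1 (4.66) and OSMR (3.96) were present. None of the 6 was called in steady-state mRNA, and IL6ST was called lower in TE with acidosis (mean log2 -1.57). IL6ST also had aggregates of 15.2, 8.83, 12.4 and 6.05 FPKM in normoxia, acidosis, hypoxia and both.

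Of 19 other ligands, 14 had such a locus, 5 were measured and 0 were called in steady-state mRNA or TE. CTF1, which encodes cardiotrophin 1 and had the highest mean of the 5, gave 6.24, 13.1, 11.9 and 15.8 FPKM in normoxia, acidosis, hypoxia and both. CXCL2 went from 3.95 FPKM in normoxia to 17.2 in acidosis, with 5.71 in hypoxia and 3.06 under both. CXCL3 gave 1.94, 9.78, 2.34 and 3.17 in the same order. Both are neutrophil chemokines with near-identical copies, so reads could have been split between them and these values are uncertain. CSF1, the macrophage growth factor, gave 7.12, 13.5, 5.92 and 0.805, and CSF3, the granulocyte growth factor, gave 10.1, 12.98, 7.09 and 2.29. Averaged over the pairs of each stress, the median change over the 5 was 0.52 with acidosis and -0.89 with hypoxia, against medians near 0 for all loci. The pairs differed, however. Hypoxia at pH 7.4 gave 0.50 for CXCL2, 0.25 for CXCL3, -0.17 for CSF1, -0.38 for CSF3 and 0.90 for CTF1. At pH 6.0 it gave -2.28, -1.48, -3.11, -2.19 and 0.15 in that order. Acidosis in normoxia gave 1.91, 1.91, 0.87, 0.37 and 1.00, and in hypoxia -0.88, 0.17, -2.09, -1.45 and 0.23.

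Of the 4 measured NF-kB subunits, 0 were called, since NFKB2 passed 2-fold in both pairs of each stress but not with one direction in every fraction. NFKB2 encodes the p100 precursor of the noncanonical pathway, and its aggregates were 4.05, 10.4, 10.4 and 32.5 FPKM in normoxia, acidosis, hypoxia and both. RELB, its partner, gave 3.35, 8.76, 5.55 and 9.96, RELA 26.5, 26.4, 35.6 and 50.6, and NFKB1 4.0, 3.85, 3.57 and 2.91. Of 13 measured genes that relay signals to NF-kB, TRADD, an adaptor of tumour necrosis factor receptors, was called higher in hypoxia (mean log2 1.18). The other 12 were not called in steady-state mRNA, and 0 of the 13 in TE.

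Of 10 measured further inhibitors, 0 were called in steady-state mRNA. RNF11, a partner of A20, was called higher in TE with acidosis (1.87), and the deubiquitinase CYLD higher in TE with hypoxia (0.95). Of 6 measured other NF-kB targets, GADD45B was called higher in hypoxia (1.26), and TNFAIP2 (-1.22) and TNFAIP8 (-1.29) lower in TE with hypoxia. The aggregates of the 6 did not share a pattern. BIRC2, an inhibitor of apoptosis, gave 13.5, 13.7, 14.4 and 17.3 FPKM in normoxia, acidosis, hypoxia and both. GADD45B gave 10.9, 17.5, 29.3 and 41.7, and TNFAIP8 7.53, 9.10, 9.09 and 15.8. The transcription factor IRF1 gave 4.29, 12.1, 4.33 and 4.53, and TNFAIP2 1.90, 10.5, 1.54 and 1.55. The pentraxin gene PTX3 gave 1.964, 6.50, 5.46 and 4.37. Among 7 measured genes of AU-rich mRNA decay, 0 were called in steady-state mRNA, and HNRNPD was called lower in TE with acidosis (-1.11) and with hypoxia (-1.24). ZFP36, whose protein binds ATTTA repeats, gave 12.97, 26.8, 17.8 and 34.5 FPKM. ZFP36L1, which had the highest mean of the 7, gave 150.1, 100.4, 148.5 and 67.9 FPKM in the same order. Averaged over the pairs of each stress, the median change over the 7 was -0.55 with acidosis and -0.31 with hypoxia. Of 4 measured genes of interleukin 1 processing, CAPN1, a calpain, was called higher in TE with hypoxia (1.49) and 0 in steady-state mRNA.

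Markers of other cell types were looked for because immune cells also make these cytokines. Of 16 such markers found, 6 were at 0 in all libraries and 3 had a mean of at least 1 FPKM, namely SNAP25 (4.50), CSF1R (2.04) and EPCAM (1.26). Of the myeloid markers found, PTPRC (mean 0.00793 FPKM), ITGAM (0.0201), CD14 (0.0490), LYZ (0.0834) and TYROBP (0) were near 0. CSF1R, also a myeloid marker, was not. The summed level of the 16 lay between 7.004 and 9.54 FPKM in normoxia, 4.13 and 7.59 in acidosis, 9.44 and 12.6 in hypoxia, and 4.65 and 8.78 under both.

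Across the 12 libraries the genes fell into patterns, given as Pearson r of log2 FPKM plus 1, as a description over points that share conditions and fractions. IL6 and IL24 gave r of 0.94, CXCL8 and IL24 0.87, and CXCL8 and IL6 0.83. IL1A and IL1B gave 0.80, IL1A and NFKBIA 0.83, and IL1B and TNFAIP3 0.79. IL1RN followed none of the others, with values from -0.46 with IL1A to 0.05 with CXCL8. Among all single-gene loci, the 3 most like CXCL8 were the pseudogene RPL29P19 (0.95), IL24 (0.87) and the pseudogene AIMP1P2 (0.85). Those most like IL1A were TMEM59L (0.95), SNAI1 (0.93) and DHRS12 (0.91), and those most like IL1B were KAZALD1 (0.92), TMEM59L (0.88) and PODNL1 (0.82). For IL6 they were RP11-818F20.5 (0.96), TBX6 (0.96) and CDK5RAP2 (0.94), for IL24 TBX6 (0.95), IL6 (0.94) and RPL29P19 (0.91), and for LIF C19orf55 (0.88), SBNO2 (0.86) and TESK1 (0.86). For IL1RN they were MAPK7 (0.84), PPP1R16A (0.84) and ARID5A (0.83), for TNFAIP3 CSAD (0.94), EPRS (0.93) and KREMEN1 (0.91), and for NFKBIA AC004069.2 (0.96), SELM (0.96) and WIPI1 (0.95).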

How the data were processed

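RNA from gradient fractions of U87MG cells was sequenced from 12 libraries, 1 per condition and fraction. A stranded mRNA kit was used, per the labels' protocols. GRCh38 is the build in the submitters' processing notes, which list Cuffnorm, Cufflinks 2.2.1, STAR 2.5.0 and bcl2fastq and assign no role to any of them. The authors deposited FPKM values for 55598 loci. Per the file headers, they also deposited a signal, the FPKM scaled by 1 RNA factor per library, from which only the factors were taken. A second set of 12 FPKM columns and the authors' own efficiencies were not used. How Cuffnorm scaled the FPKM is not given in the sources used here, so abundant transcripts in a library may lower the others.

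Within a condition, each fraction was weighted by its RNA factor. Small RNA loci (4743) and loci with a mean FPKM under 1 were left out, which left 12190. A pseudocount of 1 FPKM was added before the log2, which understates changes of low genes. Relative depth and fragment numbers were estimated from steps between low FPKM values and from transcript lengths, with 805 loci for calibration, so intervals are approximate, and reads without molecular identifiers are not independent molecules. Absolute depth is unknown. Steps were checked on simulated data. Python 3.11.15, numpy 2.4.6, pandas 2.3.3 and scipy 1.17.1 were used, with GENCODE 29 for transcripts.

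The genes and lists were chosen with earlier results of these data known. All 10 genes are named, together with list genes called for a stress, members of the lists from among the 4 with the highest mean FPKM, and the 3 single-gene loci most like each of the 9 measured genes. CXCL3, PTX3, ZFP36, CXCR1, CXCR2, CCR2, PTPRC, CD14, ITGAM and TYROBP fall outside that rule and were chosen after their values were seen. Alternatives were other pseudocounts, filters, centring, weights and TE definitions, the authors' RNA scaling, and leaving out each fraction.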

Additional observations from a re-analysis of the deposited data

Results flagged for a closer look

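For 3 genes, the centred change had one sign in every fraction of 1 pair of conditions and the opposite sign in the second pair. Both pairs are of the same stress. With 1 library per condition and fraction, none of these differences was tested. For CXCL8 the change with acidosis was higher than the median locus in all 3 fractions of normoxia and lower in all 3 of hypoxia, and the second change minus the first was -3.32 on the log2 scale. The change of CXCL8 with hypoxia was likewise up at pH 7.4 and down at pH 6.0 in all 3 fractions, with a difference of -3.31. These values are built from the same 4 aggregates and are not separate evidence. For IL24 the hypoxia changes differed by -1.41 between pH 6.0 and pH 7.4. For IL1A they differed by -0.68, and the changes at pH 6.0 were small, from -0.08 to -0.02 in the 3 fractions. Those signs come from the centring, since IL1A FPKM was slightly higher under both stresses than in acidosis in all 3 fractions. The polysome FPKM of IL24 was also slightly higher, at 1.17 under both stresses against 1.14 in acidosis. Such opposite patterns occurred in 5.98% of all compared loci for acidosis and 5.3% for hypoxia, in either direction.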

How the results depend on the processing

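Of 1036 single values recomputed under the alternatives, 847 kept their sign and their side of the threshold, 74 changed sign without passing it in either setting, 73 newly passed it, 34 no longer passed, and 8 that passed it in at least 1 of the settings reversed. Of 72 counts of called genes, 62 kept within 1.5 times. A pseudocount of 0.1 gave 1 gene called higher in steady-state mRNA with hypoxia and 2 called higher in TE with acidosis. A pseudocount of 5, a filter of mean FPKM of at least 5 (which leaves CXCL8 and NFKBIA), and leaving out the oligosome libraries each gave 0 genes called lower in steady-state mRNA with acidosis, in place of 1. In TE with acidosis, the authors' RNA scaling gave 4 called higher and 1 lower, polysome over oligosome gave 1 higher, and polysome plus oligosome over monosome gave 1 higher and 1 lower. The 8 reversed values are of TE. Under the authors' RNA scaling they were those for hypoxia at pH 6.0 of CXCL8 (-0.65) and NFKBIA (-0.80). With polysome over oligosome they were IL1A for acidosis in normoxia (-0.10) and for both stresses (-0.18), and IL1RN for acidosis (1.01), acidosis in normoxia (0.94), acidosis in hypoxia (1.07) and both stresses (1.38). The cause was not tested. Changes under the RNA scaling take in the unequal RNA of the fractions. Not centring left every call of a stress as a whole in place. Without replicates, no spread between cultures is known, and cytokine values under 1 FPKM rest on few fragments. No paired analysis was possible because each condition and fraction has a single library and no test was run.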
